A study of Mus musculus with 18 samples.

Results

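The genes of the factors that start and extend protein chains on the ribosome were followed in the brain of LPS-treated mice, in whole tissue and in RNA pulled down on tagged ribosomes. The members were all protein-coding genes in the deposited matrix whose symbol starts with Eif1 to Eif6, Eef1 or Eef2, without the eIF2 kinases (Eif2ak) and the Y-linked Eif2s3y. There were 62 such rows among 36172 in the matrix. Of these, 56 had a count and 6 were listed at 0 (Eif3j and Eif2c1 to Eif2c5, of which the last are older symbols of Argonaute genes). The 55 that were tested held more than 20 normalised counts in every library of all 4 groups, and Eif4e1b, an oocyte cap-binding protein with at most 7.60 normalised counts in a library, was not tested. Exons of Eef1a1, Eef1d, Eif4e3 and Eif4ebp3 are shared on the same strand with another annotated gene, so reads of the other gene may be counted with theirs.

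All animals were Cx3cr1-cre/ERT2+; NuTRAP+ mice of about 3 months that had received tamoxifen, and each was given 5 mg/kg LPS (a bacterial cell wall lipid) or PBS intraperitoneally 24 h before collection. In NuTRAP mice Cre switches on an EGFP-tagged ribosomal protein, and the tamoxifen-dependent Cre of this line is driven from Cx3cr1, which in the brain is expressed mainly by microglia but also by other macrophages. The lysate of a hemisected brain gave the Input library, which holds RNA of the whole tissue, and the anti-GFP pulldown gave the Positive library, which holds RNA associated with tagged ribosomes. Of PBS animals there were 4 Input and 4 Positive libraries and of LPS animals 4 Input and 5 Positive libraries, from 9 animals, since the Input LPS library of animal 271 held only 1252 counts and was left out of all values here except 1 alternative with all 18 libraries. The other 17 libraries held 22968939 to 35123345 counts. The LPS animals were 4 females and 1 male and the PBS animals 2 females and 2 males.

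In the Positive PBS libraries, all 7 microglial marker genes (Cx3cr1, P2ry12, Tmem119, Csf1r, C1qa, Aif1 and Itgam) were higher than in Input PBS, with a median log2 fold change of 4.23. RNA of other cells was present too, as the 8 neuronal markers summed to 194118 to 220936 normalised counts per Positive PBS library against 187540.0 to 197541 in Input PBS. Of these 8, 3 were called higher in Positive PBS than in Input PBS and none lower. They were Gad1, Gad2 and Slc17a7, with log2 fold changes of 0.87, 0.79 and 0.36. Neuronal RNA was thus not called depleted in the positive fraction. After LPS the neuronal sum in the positive fraction was 148340.0 to 199567, with 3 of 8 markers called lower and none called higher. The microglial sum was 130917 to 156173 in Positive PBS and 121919 to 167278 in Positive LPS, with Itgam (0.85 ± 0.21, log2 fold change ± SE) and C1qa (0.49 ± 0.13) called higher with LPS and P2ry12 (-2.47 ± 0.20) and Tmem119 (-0.86 ± 0.17) lower. The sum of 6 neutrophil markers was 30.6 to 122 with PBS and 304 to 821 with LPS in the positive fraction. In input it was higher, at 151 to 416 with PBS and 452 to 1218 with LPS. Of 4 tested neutrophil markers, 3 were called lower in Positive PBS than in Input PBS. All 4 were called higher with LPS in both fractions. Of the 6 endothelial markers, all were called higher in Positive PBS than in Input PBS (by 0.44 to 1.73 on the log2 scale), and with LPS their positive fraction sum was 5514 to 8739.8 after 6323 to 9294, with Slco1c1 (-2.59 ± 0.15) and Flt1 (-1.29 ± 0.17) called lower and Cldn5 higher. The 6 oligodendrocyte markers were all called lower in Positive PBS than in Input PBS (median -2.19), and with LPS 2 of them were called lower in the positive fraction and 5 in input. Of 4 tested monocyte markers 3 were called higher and 1 lower in Positive PBS than in Input PBS, and Ccr2 was called lower with LPS. Of 6 astrocyte markers, Slc1a2 was called higher and 2 lower in Positive PBS than in Input PBS, and with LPS Gfap was called higher (1.95 ± 0.14) and Gja1 lower in the positive fraction. No marker of these lists was at 0 in a whole group. The part of these shifts in cell types in the results below was not tested, and in bulk libraries fewer cells of a type and less RNA per cell cannot be told apart.

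As background, translation starts when eIF4E binds the mRNA cap and joins the helicase eIF4A on the scaffold eIF4G, which recruits the small ribosomal subunit with eIF3, eIF1, eIF1A, eIF5 and the eIF2 complex that carries the initiator tRNA. The 4E-BPs hold eIF4E back until the kinase mTORC1 phosphorylates them, and eIF2B recharges eIF2 with GTP, the step that the eIF2 kinases block under stress. In elongation, eEF1A brings each aminoacyl-tRNA and is recharged by eEF1B, eEF2 moves the ribosome along, and eIF5A helps with slow peptide bonds. Activated macrophages and microglia produce large amounts of cytokines and other proteins. The values here are levels of mRNA in each library, not of protein or of translation. A value in the positive fraction can change with the amount of an mRNA or with its association with tagged ribosomes. The part of each was not tested.

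The genes of translation factors were mostly higher with LPS in the positive fraction, and fewer of them were in input. In the positive fraction, 32 of 55 members (58.2%) were called higher and 1 was called lower, where 19.0% of all 14803 tested genes were called higher and 14.9% lower. The median log2 fold change was 0.37 over the members and 0.01 over all tested genes, and 49 members lay above 0. Here and below, called means an adjusted p below 0.05 (edgeR's quasi-likelihood test, Benjamini-Hochberg over all tested genes) and a higher mean more than 25% above the lower one. For 34 members every Positive LPS library lay above every Positive PBS library, which was so for 17.1% of all tested genes. In input, 7 of 55 members (12.7%) were called higher and 1 lower, against 7.16% and 5.26% of all tested genes, and the members' median was 0.11. There the libraries did not overlap for 10 members that were higher and 2 that were lower with LPS, against 12.6% and 11.5% of all tested genes. The members together took 1.24 ± 0.037% (SD, n = 4) of all counts in Positive PBS and 1.47 ± 0.057% (SD, n = 5) in Positive LPS, and the ranges, 1.21 to 1.30% and 1.38 to 1.53%, did not overlap. In input the share was 1.15 ± 0.046% with PBS and 1.19 ± 0.025% with LPS (SD, n = 4 each).

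**Figure D1:**
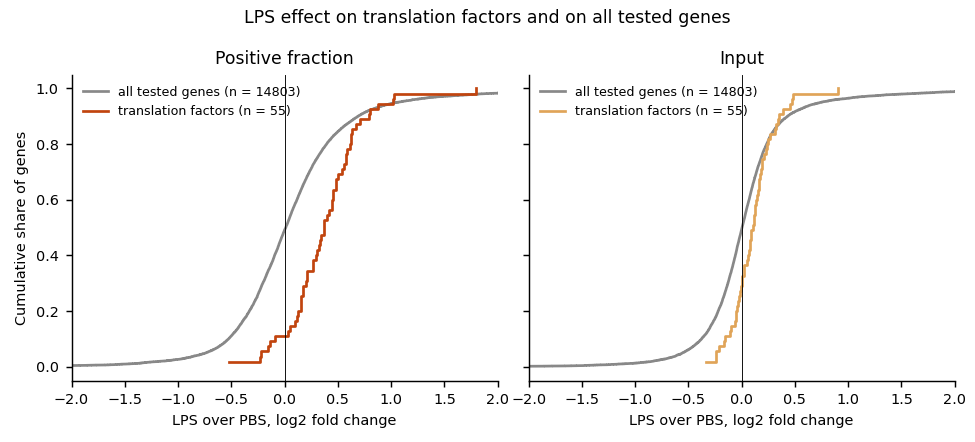
Cumulative share of genes (vertical axis) by the log2 fold change of LPS over PBS (horizontal axis, drawn from -2 to 2) in the positive fraction and in input, for the 55 tested translation factors and for all 14803 tested genes. In the positive fraction the translation factor curve sits to the right of that of all genes (median 0.37 against 0.01), and in input it sits close to it (median 0.11 against 0.00).

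The member with the largest change was Eif4ebp1, which encodes 4E-BP1, the mTORC1-controlled inhibitor of the cap-binding protein (chr8:27260327-27275656, plus strand, mm10). Eif4ebp1 had normalised counts of 207, 227, 255 and 286 in Positive PBS and 625, 753, 877, 965 and 1015 in Positive LPS. For Eif4ebp1 no LPS library fell into the PBS range, and the log2 fold change was 1.80 ± 0.15 (SE), adjusted p = 3.2e-08. This was a 3.48-fold difference. In input Eif4ebp1 had 62.7, 66.0, 73.3 and 78.4 with PBS and 118, 123, 139.7 and 144 with LPS. The Eif4ebp1 groups were apart, with LPS higher (log2 fold change 0.90 ± 0.16 (SE), adjusted p = 0.00075). The change in input was thus in the same direction and smaller. Eif4ebp2 and Eif4ebp3 encode related proteins of the same function. Eif4ebp2 had normalised counts of 456, 507, 511 and 547 in Positive PBS and 499.9, 502, 511, 545 and 550.0 in Positive LPS. The Eif4ebp2 groups overlapped, and the log2 fold change was 0.05 ± 0.10 (SE), adjusted p = 0.74. Eif4ebp3 had normalised counts of 109.6, 112, 115 and 117 in Positive PBS and 141, 171, 171, 193 and 198 in Positive LPS. For Eif4ebp3 no LPS library fell into the PBS range, and the log2 fold change was 0.62 ± 0.15 (SE), adjusted p = 0.0026. In input neither gene separated the groups, with 382 to 503 and 406 to 507 for Eif4ebp2 and 139 to 219 and 216 to 269 for Eif4ebp3. Eif4ebp3 was still called there (log2 fold change 0.47 ± 0.15 (SE), adjusted p = 0.043), a call lost in 12 of the 17 leave-one-out fits (each without 1 library), at 0.37 to 0.59 over all 17. The log2 ratio of Eif4ebp1 to Eif4ebp2 counts was -1.06 ± 0.27 (SD, n = 4) in Positive PBS and 0.68 ± 0.30 (SD, n = 5) in Positive LPS. It was below 0 in all 12 other libraries and above 0 in all 5 Positive LPS libraries. These ratios are a description without a test. The counts are not divided by exon length, so where 0 lies also depends on the lengths of the genes. Per kilobase of exon, mean Eif4ebp1 was already above mean Eif4ebp2 in Positive PBS (122 against 87.3). Eif4enif1, which carries eIF4E into the nucleus, was not called in either fraction (0.12 ± 0.07 (SE) in the positive fraction).

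Among the cap-binding proteins themselves, changes were small. Eif4e had normalised counts of 3171, 3263, 3280.4 and 3359 in Positive PBS and 3563, 3589, 3699, 3803 and 4239 in Positive LPS. The Eif4e groups were apart, with LPS higher (log2 fold change 0.21 ± 0.06 (SE), adjusted p = 0.011). That is under the 25% minimum. In input Eif4e had 3075, 3111, 3165 and 3263 with PBS and 2665, 2734, 2850.5 and 2977 with LPS. Eif4e was lower in every LPS library than in any PBS library (log2 fold change -0.17 ± 0.06 (SE), adjusted p = 0.094). It was not called. Eif4e2, the cap-binding repressor 4EHP, had normalised counts of 1792, 1925, 1959 and 2008 in Positive PBS and 2081, 2289, 2435, 2622 and 2656 in Positive LPS. For Eif4e2 no LPS library fell into the PBS range, and the log2 fold change was 0.33 ± 0.07 (SE), adjusted p = 0.0012. The call of Eif4e2 was lost without Positive LPS 267 (0.31), Positive PBS 268 (0.30) or Positive LPS 271 (0.30). Eif4e3 had normalised counts of 787, 834, 902 and 1093 in Positive PBS and 634, 697, 869, 900.2 and 1001 in Positive LPS. Values of Eif4e3 overlapped between the groups (log2 fold change -0.14 ± 0.14 (SE), adjusted p = 0.43). In input Eif4e2 had 1687 to 1753 with PBS and 1614 to 1737 with LPS, and Eif4e3 577 to 658 and 427 to 586. Both overlapped.

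The helicase eIF4A, which unwinds structured RNA ahead of the scanning ribosome, is encoded by Eif4a1 (chr11:69666936-69672423, minus strand) and Eif4a2. Eif4a1 had normalised counts of 8529, 8769, 9004 and 9372 in Positive PBS and 14754, 18226, 18281, 18346 and 20508 in Positive LPS. Eif4a1 was higher in every LPS library than in any PBS library (log2 fold change 1.02 ± 0.08 (SE), adjusted p = 2.8e-08). This was a 2.02-fold difference. Eif4a2 had normalised counts of 14857, 15581, 16045 and 16475 in Positive PBS and 12570.1, 12831, 12909.9, 13248 and 19198 in Positive LPS. For Eif4a2 the groups overlapped (log2 fold change -0.15 ± 0.10 (SE), adjusted p = 0.25). The highest Eif4a2 value, that of LPS animal 271, stood above all Positive PBS libraries, and the other 4 lay below them. Without that library the log2 fold change of Eif4a2 was -0.28, still under the 25% minimum. In input Eif4a1 had 5999, 6254, 6404 and 6956 in Input PBS and 6809, 7265, 7336 and 7379 in Input LPS, and it was not called. Eif4a2 had 16011, 16025, 17002 and 17999 in Input PBS and 16723, 17088, 18081 and 18945 in Input LPS, and it was not called either. The log2 ratio of Eif4a1 to Eif4a2 counts was -1.39 ± 0.03 (SD, n = 4) in Input PBS and -1.30 ± 0.05 (SD, n = 4) in Input LPS. In the positive fraction the ratio was -0.82 ± 0.02 (SD, n = 4) with PBS and 0.36 ± 0.19 (SD, n = 5) with LPS. The 5 Positive LPS libraries, at 0.10 to 0.51, were the only ones above 0. Here too the position of 0 depends on exon length. Per kilobase, the means of Eif4a1 (5027) and Eif4a2 (4923) were already nearly the same in Positive PBS. Of the rest of this group, Eif4a3, the helicase of the exon junction complex, was called higher (0.58 ± 0.11 (SE)). The eIF4A cofactors Eif4b (0.21 ± 0.06 (SE)) and Eif4h (0.15 ± 0.08 (SE)) were not called in the positive fraction. In input Eif4b had 7141, 7443, 7479 and 7492 with PBS and 10114, 10137, 10470.2 and 10543 with LPS. The Eif4b groups were apart, with LPS higher (log2 fold change 0.48 ± 0.06 (SE), adjusted p = 2.4e-05).

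**Figure D2:**
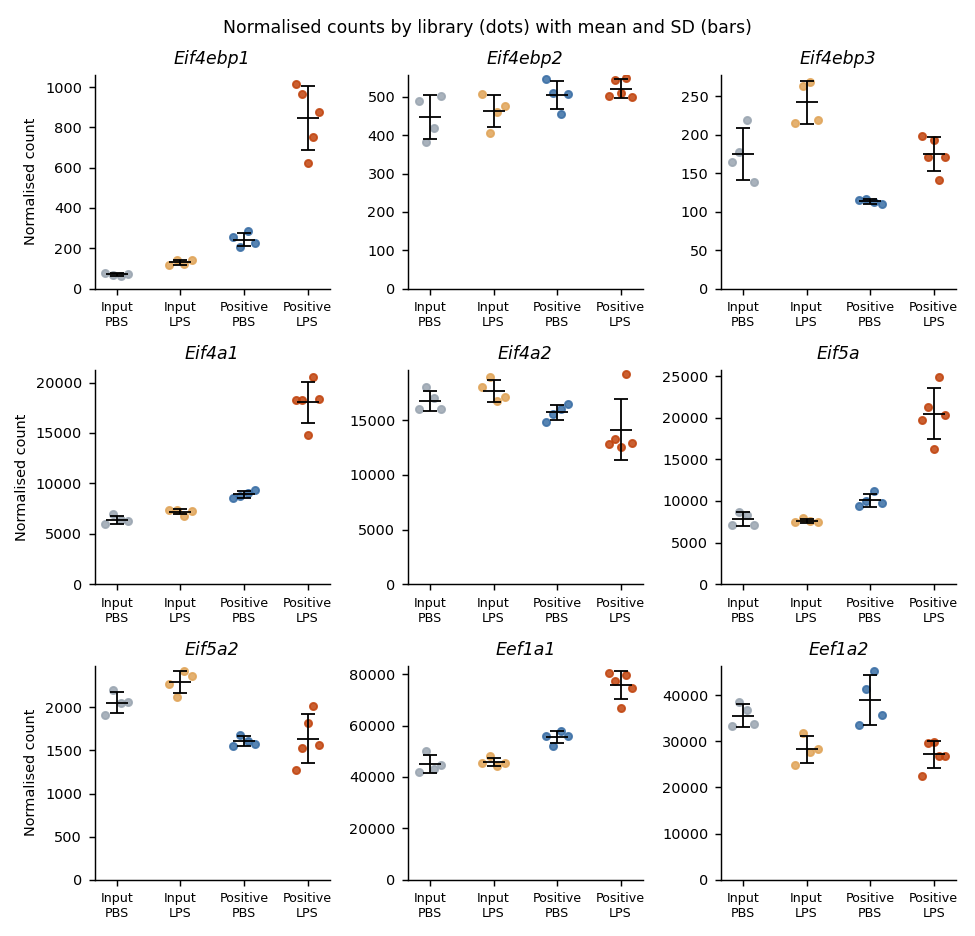
Normalised counts (vertical axes from 0) of 9 members in each library, with the mean and SD of each group as bars (4 libraries in each of the first 3 groups and 5 in Positive LPS). Eif4ebp1, Eif4a1, Eif5a and Eef1a1 were highest in the 5 Positive LPS libraries, Eif4ebp2, Eif4a2 and Eif5a2 overlapped between Positive PBS and Positive LPS, and Eef1a2 was lower in the LPS libraries of both fractions.

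For the scaffold eIF4G, which bridges the cap complex and eIF3, 1 of 3 genes was called. Eif4g1 had normalised counts of 10843, 10989, 11806 and 12719 in Positive PBS and 12479, 14458, 14897, 15041 and 15563 in Positive LPS. The Eif4g1 groups overlapped, and the log2 fold change was 0.32 ± 0.08 (SE), adjusted p = 0.0024. That fold lay on the 25% threshold, and the call was lost in 13 of the 17 leave-one-out fits, at 0.29 to 0.37 over all 17. Eif4g2, which encodes DAP5, a form that does not bind eIF4E, had normalised counts of 21921, 22464, 22905 and 23332 in Positive PBS and 21650.4, 24529, 26501, 28347 and 28952 in Positive LPS. For Eif4g2 the groups overlapped (log2 fold change 0.20 ± 0.08 (SE), adjusted p = 0.047). Eif4g3 had normalised counts of 10842, 11481, 11974 and 11976 in Positive PBS and 9749, 10649, 10656, 11294 and 11924 in Positive LPS. Values of Eif4g3 overlapped between the groups (log2 fold change -0.09 ± 0.08 (SE), adjusted p = 0.37). In input none of the 3 was called. There Eif4g1 had 7929.5 to 9173 with PBS and 8304 to 9168 with LPS, Eif4g2 18125 to 20271 and 17586 to 19913, and Eif4g3 8693 to 9959 and 8442 to 10904.

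eIF3, the largest initiation factor, binds the small subunit and eIF4G, and 12 of its genes were tested, without Eif3j, whose row, and that of its close copy Gm9781, were listed at 0, so that nothing can be said of its level. In the positive fraction 8 of 12 were called higher and none lower. The other 4, Eif3a (0.10), Eif3f (0.27), Eif3h (0.27) and Eif3k (0.31), also had log2 fold changes above 0. Eif3l had normalised counts of 1981, 1991, 2024 and 2049.6 in Positive PBS and 3377, 3483, 3541, 3624 and 4494 in Positive LPS. Eif3l was higher in every LPS library than in any PBS library (log2 fold change 0.88 ± 0.08 (SE), adjusted p = 1.7e-07). Eif3b, a subunit of the core of the complex, had normalised counts of 3964, 4064, 4134 and 4318 in Positive PBS and 6311, 6926, 7080.1, 7151 and 8458 in Positive LPS. For Eif3b no LPS library fell into the PBS range, and the log2 fold change was 0.80 ± 0.08 (SE), adjusted p = 5.3e-07. The other subunits called were Eif3i (0.58 ± 0.09), Eif3e (0.56 ± 0.08), Eif3m (0.44 ± 0.09), Eif3g (0.41 ± 0.10), Eif3d (0.40 ± 0.09) and Eif3c (0.37 ± 0.07), given as log2 fold change ± SE. In input the complex had a median of 0.12. In input Eif3l had 1656, 1658, 1809 and 1844 with PBS and 1931, 1993, 2014 and 2249.6 with LPS. The Eif3l groups were apart, with LPS higher (log2 fold change 0.23 ± 0.08 (SE), adjusted p = 0.074). It was not called. The 1 subunit called in input was Eif3e (log2 fold change 0.35 ± 0.08 (SE), adjusted p = 0.0064), which was at 0.32 and not called without Input LPS 270.

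All 3 subunits of eIF2, the carrier of the initiator tRNA, were called higher in the positive fraction. Eif2s1, the alpha subunit that the eIF2 kinases phosphorylate, had normalised counts of 1276, 1344, 1415 and 1519 in Positive PBS and 1484, 2166, 2417, 2482 and 2538 in Positive LPS. The Eif2s1 groups overlapped, and the log2 fold change was 0.67 ± 0.12 (SE), adjusted p = 0.00028. The lowest Positive LPS library, that of animal 270, lay below the top of the PBS range, and the other 4 lay above it. Eif2s2, the beta subunit, had normalised counts of 3644, 3941, 4353 and 4712 in Positive PBS and 5536, 5620.3, 5658, 6239 and 6334 in Positive LPS. For Eif2s2 no LPS library fell into the PBS range, and the log2 fold change was 0.50 ± 0.09 (SE), adjusted p = 0.00018. Eif2s3x, the X-linked gamma subunit, had normalised counts of 4962, 5174, 7224 and 8272 in Positive PBS and 6621, 8443, 9300.0, 9572 and 9919 in Positive LPS. Values of Eif2s3x overlapped between the groups (log2 fold change 0.45 ± 0.18 (SE), adjusted p = 0.049). The call of Eif2s3x was lost in 10 of the 17 leave-one-out fits, with the lowest value, 0.35, without Positive PBS 272. Its levels went with sex, as the 2 male Positive PBS libraries held 4962 and 5174 against 7224 and 8272 in the 2 female ones, and the male Positive LPS library held the lowest value of its group, 6621. With sex as a covariate its log2 fold change was 0.31, under the 25% threshold. In input Eif2s1 had 1011, 1113, 1156 and 1274 with PBS and 954, 1028, 1030.1 and 1073 with LPS. The Eif2s1 groups overlapped, and the log2 fold change was -0.16 ± 0.13 (SE), adjusted p = 0.46. No eIF2 subunit was called in input.

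Eif2a, a factor that can bring the initiator tRNA without eIF2, had normalised counts of 1092, 1120.2, 1224 and 1243 in Positive PBS and 1573, 1574, 1579, 1605 and 1619 in Positive LPS. For Eif2a no LPS library fell into the PBS range, and the log2 fold change was 0.44 ± 0.07 (SE), adjusted p = 4.4e-05. In input Eif2a had 1170.0, 1177, 1183 and 1232 with PBS and 1368, 1426, 1516 and 1650.2 with LPS. The Eif2a groups were apart, with LPS higher (log2 fold change 0.32 ± 0.07 (SE), adjusted p = 0.0038). The input value of Eif2a lay at the 25% threshold, and the call was lost without Input LPS 266 (0.32) or 270 (0.27) or Input PBS 268 (0.32), 273 (0.31) or 506 (0.32). Eif2d, with a related function, was not called in either fraction (0.12 ± 0.19 (SE) in the positive fraction).

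eIF2B, the exchange factor that returns eIF2 to its GTP form, had 4 of its 5 genes called higher in the positive fraction, and for all 5 the PBS and LPS libraries did not overlap. Eif2b3, the gamma subunit, had normalised counts of 438, 468, 501 and 505 in Positive PBS and 618, 659.9, 710.1, 746 and 956 in Positive LPS. Eif2b3 was higher in every LPS library than in any PBS library (log2 fold change 0.63 ± 0.11 (SE), adjusted p = 0.00028). The other genes called were Eif2b2 (0.54 ± 0.11), Eif2b1 (0.48 ± 0.10) and Eif2b5 (0.37 ± 0.08), and Eif2b4 was at 0.17 ± 0.09 (SE). Eif2b5, the catalytic subunit, was at 0.31 and not called without animals 506 and 507, which are numbered apart from the other 7. In input none of the 5 was called, and the median was 0.19. In input Eif2b3 had 369, 389, 389 and 409 with PBS and 451, 456, 486 and 534 with LPS. For Eif2b3 no LPS library fell into the PBS range, and the log2 fold change was 0.31 ± 0.12 (SE), adjusted p = 0.094.

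Of the factors that choose the start codon, 2 of 5 were called higher in the positive fraction and none in input. Eif1a had normalised counts of 1229, 1239, 1375 and 1546 in Positive PBS and 1892, 2029, 2041, 2138 and 2182 in Positive LPS. The Eif1a groups were apart, with LPS higher (log2 fold change 0.61 ± 0.08 (SE), adjusted p = 6.5e-06). Its X-linked counterpart Eif1ax, whose near-identical coding sequence could share reads with it, was at 0.37 ± 0.10 (SE), and at 0.32 and not called with sex as a covariate. Eif1 had normalised counts of 10910.4, 11296, 11363 and 13229.9 in Positive PBS and 12515, 13002, 14709.6, 15468 and 15992 in Positive LPS. The Eif1 groups overlapped, and the log2 fold change was 0.29 ± 0.09 (SE), adjusted p = 0.015. Eif1b had normalised counts of 2649, 2968, 3005 and 3427 in Positive PBS and 3045, 3261, 3429.8, 3463 and 3532 in Positive LPS. For Eif1b the groups overlapped (log2 fold change 0.15 ± 0.09 (SE), adjusted p = 0.17). The log2 ratio of Eif1 to Eif1b was between 1.72 and 2.18 in all 17 libraries. Eif5, which makes eIF2 hydrolyse its GTP, was at 0.18 ± 0.11 (SE). In input Eif1a had 1174, 1186, 1219.6 and 1279 with PBS and 1371, 1389, 1436 and 1577 with LPS. The Eif1a groups were apart, with LPS higher (log2 fold change 0.25 ± 0.08 (SE), adjusted p = 0.046). There Eif1 had 9998 to 11944 with PBS and 11103 to 12749 with LPS, and Eif1b 2461 to 3238 and 3119 to 3368.

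At the joining of the subunits, eIF6 keeps the large subunit free and the GTPase eIF5B brings the subunits together. Eif6 had normalised counts of 1531, 1737, 1859.6 and 2033 in Positive PBS and 2698, 2808, 2840.5, 3007 and 3302 in Positive LPS. Eif6 was higher in every LPS library than in any PBS library (log2 fold change 0.71 ± 0.09 (SE), adjusted p = 8.8e-06). In input Eif6 had 1176, 1299.6, 1465 and 1505 with PBS and 1494, 1522, 1587 and 1701 with LPS. For Eif6 the groups overlapped (log2 fold change 0.21 ± 0.10 (SE), adjusted p = 0.16). Eif5b was at -0.23 ± 0.12 (SE) in the positive fraction and was not called.

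**Figure D3:**
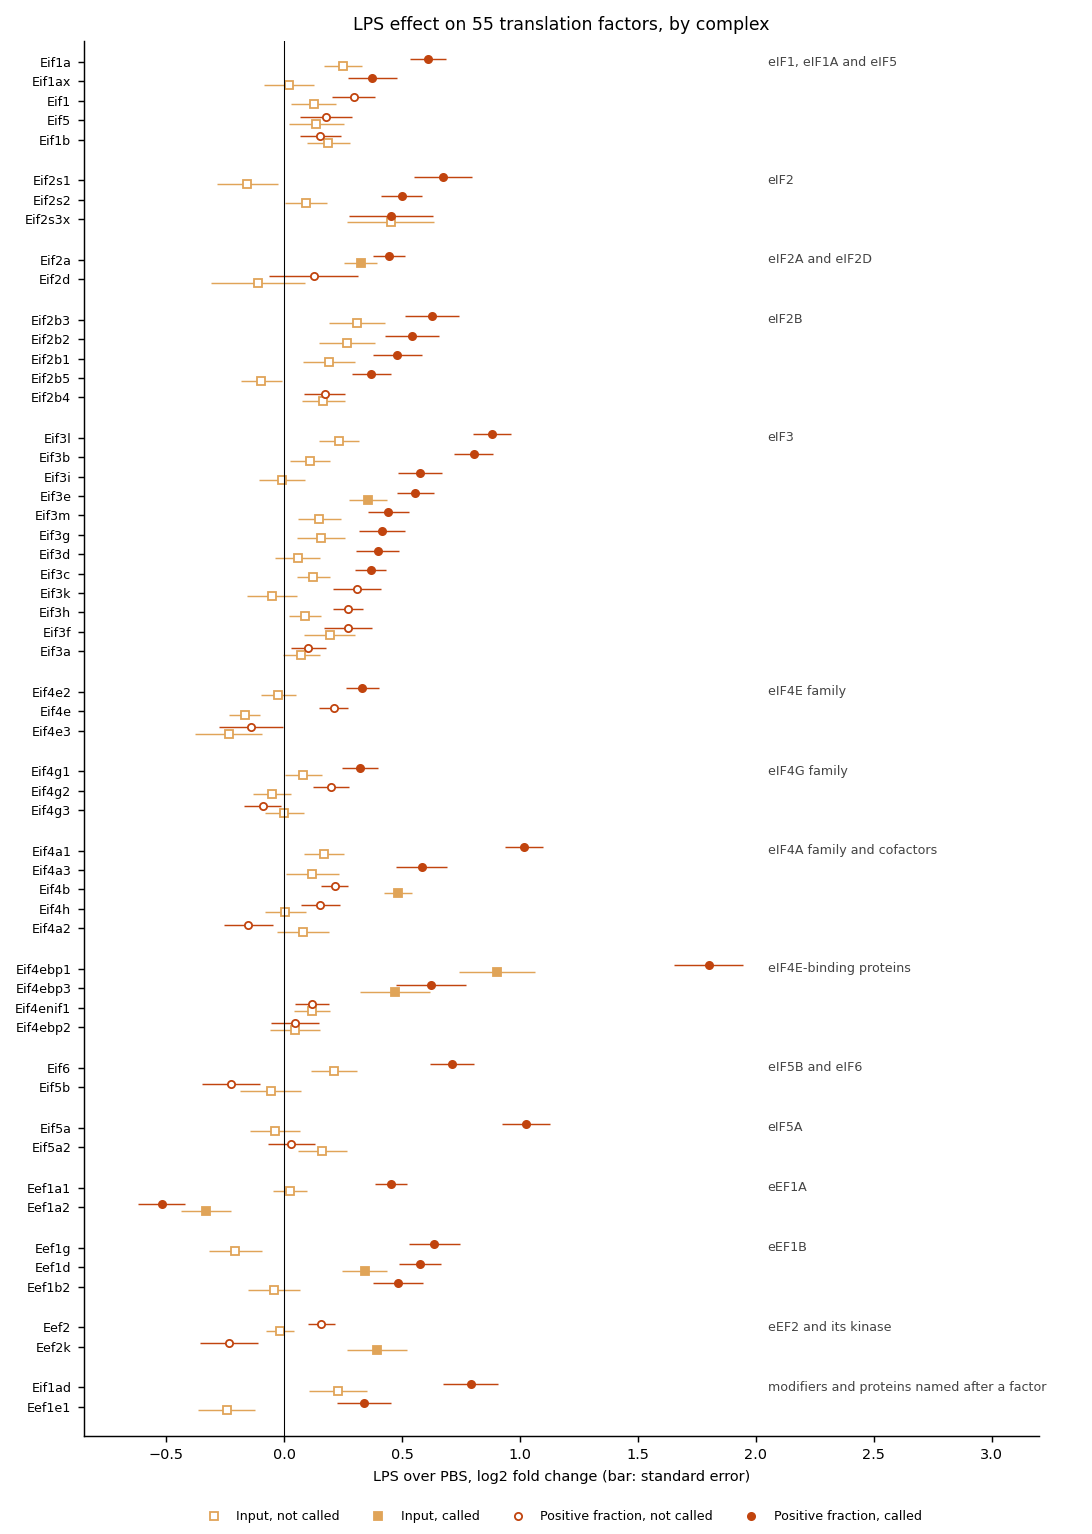
Log2 fold change of LPS over PBS with its standard error for each of the 55 tested members, grouped by complex, in the positive fraction (circles) and in input (squares), with filled symbols for called members. In the positive fraction 32 members were called higher and 1, Eef1a2, lower, and in input 7 and 1.

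In elongation, both genes of eEF1A were called in the positive fraction, in opposite directions. Eef1a1 (chr9:78478454-78481724, minus strand) is the form of most tissues, and Eef1a2 (chr2:181147692-181157015, minus strand) is the form of neurons and muscle. Eef1a1 had normalised counts of 52047, 55895, 56047 and 57734 in Positive PBS and 66751, 74721, 77458, 79794 and 80361 in Positive LPS. The Eef1a1 groups were apart, with LPS higher (log2 fold change 0.45 ± 0.07 (SE), adjusted p = 4.1e-05). Eef1a2 had normalised counts of 33411, 35738, 41275 and 45242 in Positive PBS and 22530.1, 26696, 26876, 29711 and 29913 in Positive LPS. Eef1a2 was lower in every LPS library than in any PBS library (log2 fold change -0.52 ± 0.10 (SE), adjusted p = 0.00043). In input Eef1a1 had 42088, 43253, 44652 and 50268 with PBS and 44259, 45402, 45553 and 48104 with LPS. For Eef1a1 the groups overlapped (log2 fold change 0.02 ± 0.07 (SE), adjusted p = 0.86). In input Eef1a2 had 33310.2, 33725, 36701 and 38387 with PBS and 24896, 27712, 28390.3 and 31815 with LPS. The Eef1a2 groups were apart, with LPS lower (log2 fold change -0.33 ± 0.11 (SE), adjusted p = 0.042). The input call of Eef1a2 was lost in 8 of the 17 leave-one-out fits, at -0.40 to -0.28 over all 17. The neuronal markers Stmn2 (-0.52 ± 0.10), Nefl (-0.49 ± 0.12) and Rbfox3 (-0.40 ± 0.11) were also called lower in the positive fraction (log2 fold change ± SE), and the part of neuronal RNA in the fall of Eef1a2 was not tested. The log2 ratio of Eef1a1 to Eef1a2 counts was 0.34 ± 0.08 (SD, n = 4) in Input PBS and 0.71 ± 0.12 (SD, n = 4) in Input LPS. In Positive PBS it was 0.52 ± 0.21 (SD, n = 4), and in Positive LPS 1.49 ± 0.25 (SD, n = 5). The LPS libraries lay above the PBS libraries in both fractions.

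The 3 genes of eEF1B, which recharges eEF1A, were all called higher in the positive fraction with no overlap. Eef1g had normalised counts of 6491, 6628, 7487 and 7532 in Positive PBS and 8277, 11162, 11207, 11839.7 and 12151 in Positive LPS. Eef1g was higher in every LPS library than in any PBS library (log2 fold change 0.64 ± 0.11 (SE), adjusted p = 0.00014). Its lowest LPS value was that of animal 270. Eef1d was at 0.58 ± 0.09 (SE) and Eef1b2 at 0.48 ± 0.10 (SE). In input Eef1g had 7215, 7312, 7929 and 9447 with PBS and 6336, 6793, 6833 and 7637 with LPS. For Eef1g the groups overlapped (log2 fold change -0.21 ± 0.11 (SE), adjusted p = 0.24). Eef1d was called in input (log2 fold change 0.34 ± 0.09 (SE), adjusted p = 0.021), a call lost without Input LPS 267 (0.30) or 270 (0.27) or Input PBS 268 (0.31) or 506 (0.31). Eef2, the translocase, was higher in every Positive LPS library than in any Positive PBS library but stayed under the 25% minimum (log2 fold change 0.16 ± 0.06 (SE), adjusted p = 0.034). Eef2k, the kinase that inhibits eEF2, had normalised counts of 2787, 3069, 3517 and 4009 in Positive PBS and 2252, 2445, 2995, 3088 and 3432 in Positive LPS. Values of Eef2k overlapped between the groups (log2 fold change -0.24 ± 0.12 (SE), adjusted p = 0.13). In input Eef2k had 1509.6, 1764, 1908 and 2000.4 with PBS and 2307, 2314, 2349 and 2458 with LPS. Eef2k was higher in every LPS library than in any PBS library (log2 fold change 0.39 ± 0.13 (SE), adjusted p = 0.050). The input call of Eef2k, just past the threshold, was lost in 11 of the 17 leave-one-out fits, with the lowest value, 0.32, without Input PBS 272.

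eIF5A carries hypusine, an amino acid found on this protein alone, and is encoded by Eif5a (chr11:69916712-69921958, minus strand) and Eif5a2. Eif5a had normalised counts of 9380.4, 9741, 9951 and 11190.1 in Positive PBS and 16206, 19738, 20340.1, 21301 and 24829 in Positive LPS. For Eif5a no LPS library fell into the PBS range, and the log2 fold change was 1.02 ± 0.10 (SE), adjusted p = 4.1e-07. This was a 2.03-fold difference. Eif5a2 had normalised counts of 1552, 1572, 1614 and 1682 in Positive PBS and 1273, 1528, 1558, 1814 and 2015 in Positive LPS. Values of Eif5a2 overlapped between the groups (log2 fold change 0.03 ± 0.10 (SE), adjusted p = 0.83). The sign of that value turned without Positive LPS 270 (-0.0063) or 271 (-0.051). In input Eif5a had 7076, 7155, 8339.8 and 8691 with PBS and 7450.1, 7454, 7623 and 7898 with LPS. The Eif5a groups overlapped, and the log2 fold change was -0.04 ± 0.10 (SE), adjusted p = 0.85. In input Eif5a2 had 1907, 2051, 2059 and 2198 with PBS and 2121, 2275, 2363 and 2424 with LPS. For Eif5a2 the groups overlapped (log2 fold change 0.16 ± 0.10 (SE), adjusted p = 0.34). The log2 ratio of Eif5a to Eif5a2 was 2.65 ± 0.10 (SD, n = 4) in Positive PBS and 3.65 ± 0.30 (SD, n = 5) in Positive LPS, with no overlap. It was 1.80 to 2.02 in Input PBS and 1.65 to 1.90 in Input LPS. Eif5a and Eif4a1, which had the largest rises after Eif4ebp1, lie on chromosome 11 with 244288 bases between them. Of the 15 tested genes between them 2 were called higher in the positive fraction, where 19.0% of all tested genes were. The neighbouring genes thus do not stand out from all genes.

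Of the genes that only carry a factor's name, Eif1ad and Eef1e1 were called higher in the positive fraction. Eif1ad had normalised counts of 908, 934, 985 and 1143 in Positive PBS and 1468, 1519, 1685, 1923 and 1984 in Positive LPS. The Eif1ad groups were apart, with LPS higher (log2 fold change 0.79 ± 0.12 (SE), adjusted p = 3.6e-05). In input Eif1ad had 717, 737, 851 and 934 with PBS and 842, 873, 960.3 and 1117 with LPS. The Eif1ad groups overlapped, and the log2 fold change was 0.23 ± 0.12 (SE), adjusted p = 0.24. Eef1e1, a scaffold protein of the multisynthetase complex, was called at 0.34 ± 0.12 (SE), adjusted p = 0.026. That call was lost without Positive PBS 268 (0.29), Positive LPS 271 (0.25) or Positive PBS 272 (0.34).

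**Figure D4:**
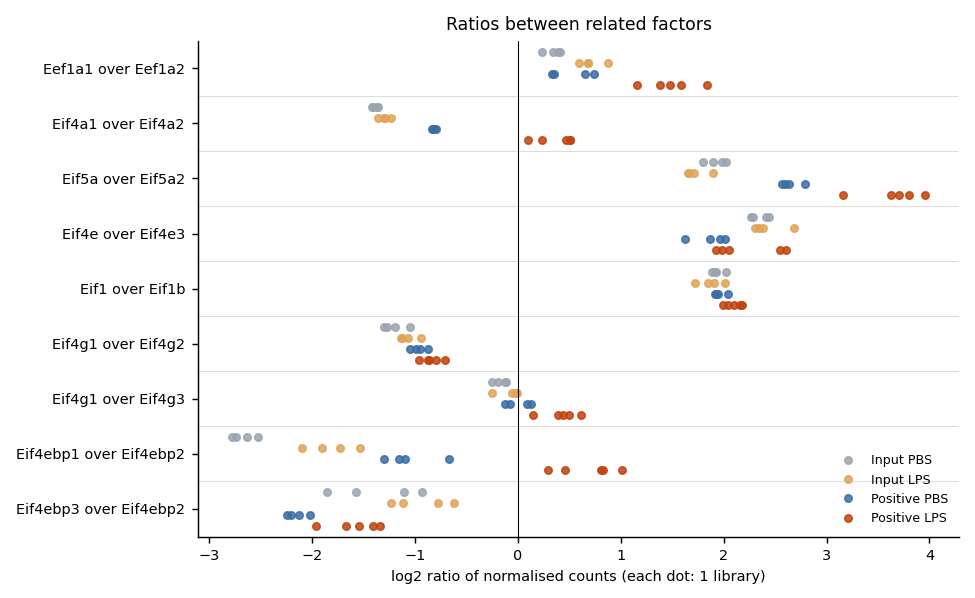
Log2 ratio of normalised counts between related members (horizontal axis), with 1 dot per library and the 4 groups in colours. Counts are not divided by exon length, so the position of 0 also reflects the lengths of the genes. The ratios of Eif4a1 to Eif4a2 and of Eif4ebp1 to Eif4ebp2 lie below 0 in all Input and Positive PBS libraries and above 0 in the 5 Positive LPS libraries, and Eif1 to Eif1b stays within 1.72 to 2.18.

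Promoter sequences from RefSeq (GRCm38.p6, the build of the files, from 250 bases before to 50 after each annotated start) were matched to 48 of the 62 members, of which 43 were tested, and none matched for Eif4ebp1. Among 7 short strings counted on both strands, the E-box CACGTG, a site bound by MYC and related factors, was in the promoters of 12 of these 43 members (27.9%) and of 11.2% of all 11676 tested genes with an entry. It was in 3 of the 23 members called higher in the positive fraction and in 9 of the 20 others. The ETS-type string CCGGAAGT was in 8 members (18.6%) and 7.93% of all genes, and the shorter GGAAG, which it contains, in 41 (95.3%) and 78.4%. CCGGAAGT had the opposite split, with 6 of the 23 members called higher and 2 of the 20 others. GGAAG was in 22 of the 23 and 19 of the 20. The CRE string TGACGTCA was in 1 member (2.33%) and 3.43% of all, and TGACG, which it contains, in 22 (51.2%) and 33.3%. TGACG was in 10 of the 23 members called higher and in 12 of the 20 others. CACGCG was in 9 members (20.9%) and 19.1% of all, and TGATGCAA, a string bound by ATF4 with its partners, in 0 members and 0.694% of all. A gene could have more than 1 annotated start, and a match at any of them counted. These are matches of letters, given as a description. The E-box printed for Eif5a lies inside the gene span given above, 74 bases before an annotated start within that span. The stretches around the E-box (in capitals) show it at Eif4a1 and Eif5a, which rose, and at Eif5a2 and Eef2, which were not called, each on the strand of its gene:
Eif4a1 (chr11:69672595-69672624, minus strand): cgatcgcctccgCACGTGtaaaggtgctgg
Eif5a (chr11:69921443-69921472, minus strand): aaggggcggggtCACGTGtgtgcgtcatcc
Eif5a2 (chr3:28781123-28781152, plus strand): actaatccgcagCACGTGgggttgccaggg
Eef2 (chr10:81176576-81176605, plus strand): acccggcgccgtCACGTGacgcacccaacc

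Several elongation factor and eIF3 genes, like those of ribosomal proteins, are known for a run of pyrimidines at the very start of their mRNA, the TOP motif, through which mTORC1 controls their translation. Of 9 members held to be of this kind (Eef1a1, Eef1b2, Eef1d, Eef1g, Eef2, Eif3e, Eif3f, Eif3h and Eif4b), 5 were called higher in the positive fraction, with a median log2 fold change of 0.45, and 27 of the 46 other members, with a median of 0.37. In input 3 of 9 were called higher. At the annotated RefSeq start, a C followed by at least 4 pyrimidines was found for 1 of the 5 TOP members with an entry, for 1 other member and for 3.04% of all tested genes with an entry. This match takes the annotated start as the first base of the mRNA, which was not checked. It therefore cannot show that a member lacks a TOP run. The 30-base stretches below, with the pyrimidine run from the annotated start in capitals, show the 2 members with such a start, Eif3f (not called) and Eif2s3x (called), beside Eef1a1, whose annotated start begins with T:
Eif3f (chr7:108934403-108934432, plus strand): gttctaggctctCTCTCTTTCTCggcaaga
Eif2s3x (chrX:94212634-94212663, minus strand): ccgagcattttcCTTTTCTCTCCgagcaag
Eef1a1 (chr9:78481707-78481736, minus strand): ggctccgccctcTTCCCgagggtgggggag

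The other genes of the translation apparatus were counted in the same fits. Cytosolic ribosomal proteins are the building blocks of the ribosome itself. Their list of 78 tested genes also held some with related symbols, such as Rps19bp1, Rpl7l1, Rpl39l and Rps27l. Of these 78, 75 were called higher in the positive fraction (median log2 fold change 0.69), with 1, Rps27l, in input (median 0.02). Of the enzymes that make hypusine on eIF5A and diphthamide on eEF2, 4 of 7 were called higher in the positive fraction, namely Dph1 (0.74 ± 0.12), Dph5 (0.54 ± 0.11), Dph2 (0.51 ± 0.10) and Dohh (0.36 ± 0.12), and none in input. Of the cytosolic aminoacyl-tRNA synthetases, which load the tRNAs, 8 of 20 were called higher (median 0.22), led by Vars (0.88 ± 0.08) and Tars (0.62 ± 0.07), and none in input. Of 7 termination and recycling factors, Etf1 (0.56 ± 0.07) and Denr (0.38 ± 0.09) were called higher, and of 5 poly(A)-binding proteins and partners Pabpc1 was (0.49 ± 0.07). Of 10 mitochondrial translation factors, Guf1 (0.76 ± 0.28) and Gfm1 (0.32 ± 0.07) were called higher and Mrrf lower (-0.46 ± 0.13). Of these last 3 lists, Pabpc1 (0.33 ± 0.07) was called higher and Pabpc4 (-0.34 ± 0.10) lower in input, and no other gene was. By the same rule, 19.0% of all 14803 tested genes rose with LPS in the positive fraction and 14.9% fell. The small counts of the poly(A)-binding and mitochondrial lists there do not stand out from these shares. Values after gene names are log2 fold changes ± SE.

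Genes of the regulators of these factors were counted too. Of 15 genes of the mTORC1 pathway and the eIF4E kinases, none was called in the positive fraction (median log2 fold change 0.07) and 1, Tsc1, was called in input (0.36 ± 0.10). Of the eIF2 kinases and phosphatase subunits, 3 of 6 were called higher in the positive fraction. These were Eif2ak2, the interferon-induced kinase PKR (1.19 ± 0.11), and the phosphatase subunits Ppp1r15b (0.74 ± 0.07) and Ppp1r15a (0.51 ± 0.17), which reverse the kinases' effect. In input Eif2ak2 was called (1.15 ± 0.12) and the other 5 were not.

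**Figure D5:**
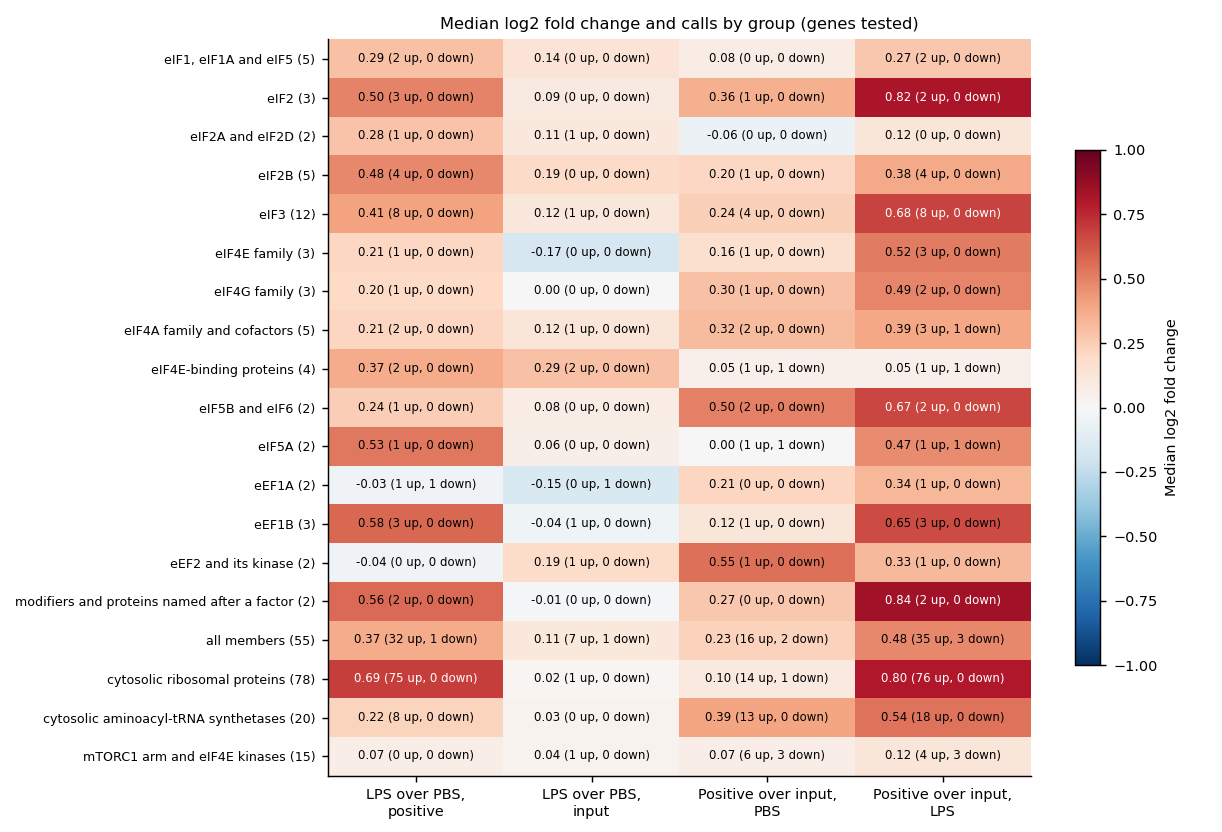
Median log2 fold change (colour and first number) and the number of genes called higher and lower, for each complex and for 3 other lists (number of tested genes after each name), in 4 comparisons. In the positive fraction the LPS medians of the complexes run from -0.04 to 0.58, and in input from -0.17 to 0.29.

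The LPS effect was then compared between the fractions with the interaction term of the same fit. For 15 of 55 members (27.3%) the effect was called larger in the positive fraction and for 1 smaller, against 5.46% and 1.42% of all tested genes. The largest differences of the log2 fold changes (positive minus input, ± SE) were Eif5a (1.06 ± 0.15), Eif4ebp1 (0.90 ± 0.21), Eif4a1 (0.85 ± 0.12), Eef1g (0.84 ± 0.16), Eif2s1 (0.83 ± 0.18), Eif3b (0.69 ± 0.12) and Eif3l (0.65 ± 0.12). The member with a smaller effect in the positive fraction was Eef2k (-0.63 ± 0.18 (SE), adjusted p = 0.038). That call was lost in 8 of the 17 leave-one-out fits, with the value nearest 0, -0.53, without Positive PBS 268. Eef1a2, lower with LPS in both fractions, had a difference of -0.19 ± 0.14 (SE), adjusted p = 0.54. With library totals alone the counts were 10 and 2, and 4.42% of all tested genes were called larger. Without animals 506 and 507, 6 members were called larger and none smaller, and the share of all tested genes called larger fell to 1.77%. The 5 members called under every alternative were Eif5a, Eif4a1, Eef1g, Eif3b and Eif3l.

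Comparing the positive fraction with input asked which members were more abundant in the RNA of tagged ribosomes than in the whole tissue. In PBS animals 16 of 55 members (29.1%) were called higher in the positive fraction and 2 lower, against 21.0% and 18.8% of all tested genes, with a median log2 fold change of 0.23. For 28 members every Positive PBS library lay above every Input PBS library and for 3 below, against 25.2% and 20.5% of all tested genes. With scaling by library totals alone, 15.9% of all tested genes were called higher. The split of the members was 10 higher and 3 lower, as the median of all genes moved from -0.00 to -0.12 and that of the members to 0.12. Eef1d, Eif2b4, Eif2s2, Eif3b, Eif5a and Eif6 were among those no longer called. Eif4ebp1 had the highest log2 fold change, 1.79 ± 0.16 (SE), adjusted p = 4.3e-08, followed by Eef2k (0.90 ± 0.13), Eif5b (0.61 ± 0.13), Eif3g (0.55 ± 0.10), Eif4e3 (0.55 ± 0.14), Eif3c (0.54 ± 0.07) and Eif3d (0.53 ± 0.10). The members lower in the positive fraction were Eif4ebp3 (-0.62 ± 0.15 (SE)) and Eif5a2 (-0.36 ± 0.11 (SE)), each related to one that was higher, Eif4ebp1 and Eif5a (0.37 ± 0.11 (SE)). In LPS animals 35 of 55 (63.6%) were called higher and 3 lower, against 27.6% and 25.8% of all tested genes, with a median of 0.48. The ranges did not overlap for 36 members that were higher and 2 that were lower, against 25.2% and 20.1% of all tested genes. With library totals alone the calls were 26 and 3, with 20.4% of all tested genes called higher. The median of all genes then moved from -0.03 to -0.20. The highest were Eif4ebp1 (2.69 ± 0.15), Eif5a (1.43 ± 0.10), Eif4a1 (1.32 ± 0.08), Eif2s1 (1.12 ± 0.12) and Eif3b (1.07 ± 0.08), and the lower ones were again Eif5a2 (-0.49 ± 0.10 (SE)) and Eif4ebp3 (-0.47 ± 0.14 (SE)), and now Eif4a2 (-0.32 ± 0.10 (SE), lost in 6 of the 17 leave-one-out fits). In PBS animals the call of Eif5a2 was lost without Input PBS 272 (-0.32), and that of Eif5a without Positive PBS 273 (0.31). The 15 members called higher in both were 15 of the 16 in PBS animals and 15 of the 35 in LPS animals. The 7 microglial markers were higher by 4.09 to 4.43 in PBS animals, each more than Eif4ebp1.

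Divided by exon length, the level of Eef1a1 was the highest of the 55 in every group, with 30898 ± 1341 normalised counts per kilobase (SD, n = 4) in Positive PBS and 42262 ± 3085 (SD, n = 5) in Positive LPS. In Positive PBS it was followed by Eef1a2 (18674 ± 2569), Eef2 (12831 ± 664) and Eif1 (8850.0 ± 786). With LPS, Eef2 (14309.5 ± 541) and Eef1a2 (13026 ± 1436) lay within their spread of each other. Eif4a1 (5027 ± 202) and Eif4a2 (4923 ± 217) stood at nearly the same level per kilobase in Positive PBS, and at 10159.7 ± 1165 and 4426 ± 886 in Positive LPS. Eif4ebp1 went from 122 ± 17.3 to 424 ± 79.6 per kilobase, from rank 53 to rank 44, while Eif4ebp2 stayed last (87.3 ± 6.47 and 90.2 ± 4.15).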

How the data were processed

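RNAseq counts of 17 libraries were analysed. The authors trimmed and aligned the reads to mm10 in the strand direction with Strand NGS and deposited estimated counts per RefSeq gene (81.7% of the values above 0 are not whole) and DESeq-normalised log2 values. The latter were used in an alternative only. DESeq and mm10 are also named in the submitters' processing notes. No deposited fold change or p-value was used. How reads were assigned to overlapping genes is not given in the sources used here. The estimated counts deposited were rounded, scaled by median-of-ratios size factors (0.766 to 1.32, from 15766 genes) and kept where all libraries of a group exceeded 20 normalised counts (14803 genes). edgeR 4.0.16 (quasi-likelihood, R 4.3.3, 13 residual degrees of freedom) was fitted on the 4 groups together, with Benjamini-Hochberg adjustment over all tested genes, and called genes had an adjusted p below 0.05 and a higher mean more than 25% above the lower one. Alternatives were DESeq2 1.42.0, limma 3.58.1, TMM scaling, library totals, no filter or a stricter one, only the libraries compared, sex as a covariate, animal as a block, all 18 libraries, the deposited log2 values, and leaving out animals 506 and 507 or each library in turn.

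The members and gene lists were chosen with earlier results of these data known. Every member was counted by complex. The member with the largest LPS change in the positive fraction of each complex and the related sets Eef1a1/Eef1a2, Eif4a1/Eif4a2, Eif5a/Eif5a2, Eif4e/Eif4e3, Eif1/Eif1b, Eif4g1/Eif4g2/Eif4g3 and Eif4ebp1/Eif4ebp2/Eif4ebp3 are given by library. Values by library of Eif3b, Eif2s2, Eif2s3x and Eif4b were added after they were seen. Exon lengths came from GENCODE M21. Input and Positive libraries of an animal deviated together (correlation 0.16 to 0.52 in 8 animals), and they come from the same animal. The microglial list first held 8 genes, of which 1 is not reported here, and all microglial values rest on the other 7. No pair of libraries of a group agreed within sampling noise.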

Additional observations from a re-analysis of the deposited data

Results flagged for a closer look

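A sample far from the rest of its group was looked for in 104 groups (26 members in 4 groups), where chance gives about 1 in 20, and 3 were found. All were Positive LPS libraries. Animal 270 had 8277 normalised counts of Eef1g against 11162 to 12151 in the others, and it was also the lowest of its group for Eif4a1, Eif5a and Eef1a1. Animal 271 had 4494 counts of Eif3l against 3377 to 3624 and 19198 counts of Eif4a2 against 12570.1 to 13248.

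The members whose LPS effect was called as different between the fractions (positive minus input, log2) were, among initiation factors, Eif4ebp1 (0.90), Eif4a1 (0.85), Eif2s1 (0.83), Eif3b (0.69), Eif3l (0.65), Eif3i (0.59), Eif6 (0.50), Eif2b5 (0.47), Eif4e (0.38) and Eif4e2 (0.36). Among elongation factors and related genes they were Eif5a (1.06), Eef1g (0.84), Eef1e1 (0.58), Eef1b2 (0.53), Eef1a1 (0.43) and, with the opposite sign, Eef2k (-0.63).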

How the results depend on the processing

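The count of 32 members called higher with LPS in the positive fraction lay between 28 and 34 under every alternative, and 27 of the 33 calls were kept under all of them. The 6 lost under some were Eif4e2, Eef1e1, Eif2b5, Eif4g1, Eif2s3x and Eif1ax. The count called lower was 1 to 2 when a library was left out. In input, the 7 called higher became 2 to 7 when a library was left out (4 without Input PBS 268, 2 without Input LPS 270 and 3 without Input PBS 506) and 4 without animals 506 and 507. Of all tested genes, 6.04% were called higher in input without Input LPS 270 and 6.09% without Input PBS 506. In these fits the members' share lay below that of all genes. The 1 called lower became 0 to 1 when a library was left out, and 0 with library totals, no filter, sex as a covariate, all 18 libraries, the deposited log2 values or without animals 506 and 507. Only Eif4ebp1 and Eif4b were called in input under every alternative. For the positive fraction against input in PBS animals, the 16 called higher became 10 with library totals, 9 when all 18 libraries entered, 10 when the log2 values as deposited were used and 14 to 21 when a library was left out, and the 2 called lower became 1 to 3 when a library was left out (1 without Input PBS 272) and 1 without animals 506 and 507. For the difference between fractions, the 15 called larger became 11 to 18 when a library was left out and 10 with library totals, and 6 without animals 506 and 507, and the 1 called smaller became 0 to 1 when a library was left out, 2 with library totals or the replicate block, and 0 with all 18 libraries, the deposited log2 values or without animals 506 and 507. Of all tested genes, 4.42% were called larger with library totals and 1.77% without animals 506 and 507. With animal as the replicate block, the counts were 17 and 2 for positive against input with PBS, 33 and 3 with LPS, and 19 and 2 for the difference. With library totals, all 18 libraries and the log2 values as deposited, the median of all genes in positive against input was -0.12, -0.12 and -0.13 with PBS and -0.20, -0.11 and -0.14 with LPS. The cause of these shifts was not tested. Only 575 genes had a count in all 18 libraries, since 1 of them held 1252 counts, where the main size factors came from 15766 genes. The scaling with all 18 libraries is thus less well founded.

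No called member changed sign. Values near 0 did so for Eif5a2 in the positive fraction (-0.0050 with library totals, -0.051 to 0.112) and for Eif4ebp2 (-0.00052 to 0.085). In input they did so for Eif4g3 (-0.0064 with TMM, -0.0067 with only the libraries compared, -0.0047 with limma, -0.018 with sex as a covariate, -0.0080 with all 18 libraries, -0.077 to 0.049), Eif4e2 (0.0044 with library totals), Eef1a1 (-0.050 with all 18 libraries, -0.0075 to 0.079), Eif5a (0.0020 with sex as a covariate, -0.084 to 0.014) and Eif4ebp2 (-0.024 to 0.106), where ranges are over fits that left out a library.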
